A study of Homo sapiens with 8 samples.

Results

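Metallothioneins and the genes that set their level are described here in HEK293 cells given a tRNA-derived RNA (tDR). The set holds 8 genes of the 60606 in the count table: the metallothioneins MT1E, MT1F, MT1G, MT1M, MT1X and MT2A, the transcription factor gene MTF1 and the zinc exporter gene SLC30A1. They were matched by gene symbol, and all 8 were found. They were chosen by name with the tDR-over-control log2 fold changes of these data known, so their differences between the groups are given as a description, with no test.

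Metallothioneins are small cysteine-rich proteins that hold zinc and copper ions through the sulfur of their cysteines. MTF1 senses free zinc in the cell and, with zinc bound, binds metal response elements in front of metallothionein genes and of SLC30A1, whose product ZnT1 moves zinc out across the plasma membrane. In kidney-derived cells metallothioneins are known for buffering zinc and for binding toxic metals such as cadmium.

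HEK293 is a long-established human line from embryonic kidney, and it is 1 line and not kidney tissue. The treated cells received a synthetic copy of the tRNA-Asp-GTC 3' tDR, and the control cells a scrambled mimic. Both were used at 50 nM with Lipofectamine RNAiMax, and cells of both groups were collected after 48 hours. Each group held 4 libraries of total RNA, and the labels name no other treatment, metal or allele. They do not say that the libraries came from separate cultures, so errors and p-values reflect how these 8 libraries vary, which may be technical.

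Library totals were 5848305 to 9237986 counts in the tDR group and 6536554 to 10557740 in the control group. Of 17184 genes tested, 24.3% passed the test in either direction, 12.8% higher and 11.4% lower in the tDR libraries. All 6 HEK293 marker genes were detected, at a summed 461 to 508 CPM in tDR libraries and 524 to 574 CPM in control libraries. CPM are counts per 1000000 counts of a library whose total is scaled by a TMM factor (a correction of library size for composition), unless said otherwise. Over unscaled totals the same sums overlapped, at 476 to 513 CPM in tDR libraries and 509 to 557 CPM in control libraries. On the TMM scale PAX2 and KRT8 lay higher and NEFL and NEFM lower in every tDR library than in any control library, and over unscaled totals VIM lay higher as well. Of the 10 markers of leukocytes, endothelium, fibroblasts and proximal tubule none was at 0 in all libraries, 2 of the 5 tested were higher (PECAM1 and COL1A1), and their summed level was 91.8 to 99.6 CPM in tDR libraries and 71.9 to 88.0 CPM in control libraries. CD14, a monocyte marker, stood at 0 to 0.685 CPM in tDR libraries and 0.159 to 0.589 CPM in control libraries. A background of counts over olfactory receptor genes, which are used mainly in the nose, was 0.0229 to 0.0259 CPM per kb of unscaled totals in tDR libraries and 0.0135 to 0.0176 in control libraries. The markers' part in the results below was not tested.

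The coding sequences show how alike the metallothioneins are, which bears on how reads can be told apart. They are read from GENCODE release 29 on GRCh38, 5′ to 3′ on the gene's own strand (all + here), and capitals mark each base that differs from MT2A. The 4 shown are those of MT2A, which held most counts, of MT1F, the other one with counts in every library, of MT1X, which had none, and of MT1E.
MT2A: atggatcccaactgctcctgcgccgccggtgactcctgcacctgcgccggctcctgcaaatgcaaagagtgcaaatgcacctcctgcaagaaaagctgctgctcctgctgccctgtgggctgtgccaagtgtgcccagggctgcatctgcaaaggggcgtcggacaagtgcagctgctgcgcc
MT1F: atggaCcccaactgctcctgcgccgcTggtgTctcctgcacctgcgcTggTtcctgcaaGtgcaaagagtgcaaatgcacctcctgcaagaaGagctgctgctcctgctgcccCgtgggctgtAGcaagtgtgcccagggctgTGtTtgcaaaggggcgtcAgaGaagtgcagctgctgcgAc
MT1X: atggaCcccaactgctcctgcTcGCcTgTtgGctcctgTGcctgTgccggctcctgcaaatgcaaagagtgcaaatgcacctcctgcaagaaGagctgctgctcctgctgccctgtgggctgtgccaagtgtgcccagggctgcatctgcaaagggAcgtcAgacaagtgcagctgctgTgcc
MT1E: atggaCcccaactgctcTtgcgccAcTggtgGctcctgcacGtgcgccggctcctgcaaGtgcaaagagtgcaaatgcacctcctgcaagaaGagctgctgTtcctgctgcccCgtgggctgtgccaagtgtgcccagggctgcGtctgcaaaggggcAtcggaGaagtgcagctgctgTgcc
Each of the 4 has 183 coding bases, or 61 codons, of which 20 (32.8%) encode cysteine. MT1F differs from MT2A at 16 bases, and MT1X and MT1E at 14 each. MT1M differs from it at 19 of 183 bases, and MT1G is longer by 1 codon, at 186 bases. Between the 5 members of equal length, identity ran from 88.5% for MT1F with MT1X to 92.3% for MT1X and for MT1E with MT2A and for MT1E with MT1M. Over whole transcripts the overlap was smaller for the genes with counts. No 75-base word of MT2A, MT1F or SLC30A1 transcripts occurred in the transcripts of another gene, against 14.3% of such words of MT1X, 5.73% of MT1G, 1.43% of MT1E and 0.231% of MT1M. With 50-base words the share was 3.02% for MT2A and 1.22% for MT1F, against 18.3% for MT1X, 16.5% for MT1G, 9.9% for MT1M and 7.10% for MT1E. No source used here states how reads that match several genes were counted, so the counts of MT1X, MT1G, MT1E and MT1M are uncertain.

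The promoters are shown because MTF1 acts through the metal response element. The core was searched as TGCACNC or TGCGCNC on both strands, in RefSeq windows of 300 bases (GRCh38.p14) that start 250 bases before the transcription start. Capitals mark the matches. The table held windows for MT2A, MT1X, SLC30A1 and MTF1.
MT2A, chr16:56608334-56608633, + strand: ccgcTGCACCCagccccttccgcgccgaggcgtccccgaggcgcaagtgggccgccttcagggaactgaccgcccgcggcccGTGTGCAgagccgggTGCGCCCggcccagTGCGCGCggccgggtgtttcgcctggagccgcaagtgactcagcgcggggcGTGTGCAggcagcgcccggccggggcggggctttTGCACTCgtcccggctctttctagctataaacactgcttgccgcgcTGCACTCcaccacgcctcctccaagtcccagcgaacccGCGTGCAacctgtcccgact
MT1X, chr16:56682220-56682519, + strand: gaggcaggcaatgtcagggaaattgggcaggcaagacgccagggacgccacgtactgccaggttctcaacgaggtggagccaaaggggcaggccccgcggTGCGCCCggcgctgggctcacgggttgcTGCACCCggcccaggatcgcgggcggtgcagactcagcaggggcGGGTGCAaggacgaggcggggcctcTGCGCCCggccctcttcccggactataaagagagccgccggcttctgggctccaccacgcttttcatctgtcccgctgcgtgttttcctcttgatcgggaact
SLC30A1, chr1:211579112-211579411, − strand: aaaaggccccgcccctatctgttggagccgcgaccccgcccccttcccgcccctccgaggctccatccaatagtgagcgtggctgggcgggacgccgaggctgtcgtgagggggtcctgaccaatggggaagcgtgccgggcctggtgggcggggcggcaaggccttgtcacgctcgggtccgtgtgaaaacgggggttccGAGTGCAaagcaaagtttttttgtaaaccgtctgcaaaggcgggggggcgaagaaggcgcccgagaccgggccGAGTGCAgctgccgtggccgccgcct
The MT2A window held 8 matches, 5 on the gene's strand and 3 on the other. The MT1X window held 4, the SLC30A1 window 2, both on the other strand, and the MTF1 window 0. None of the matches overlapped within a window. Of 35116 promoter windows of the same length 29.6% held at least 1 match, 8.60% at least 2, 0.601% at least 4 and 0.0740% at least 6. A match to 7 letters is a description of the sequence and not a measured binding site. MT1X, with 4 matches, had no counts in these cells.

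**Figure D1:**
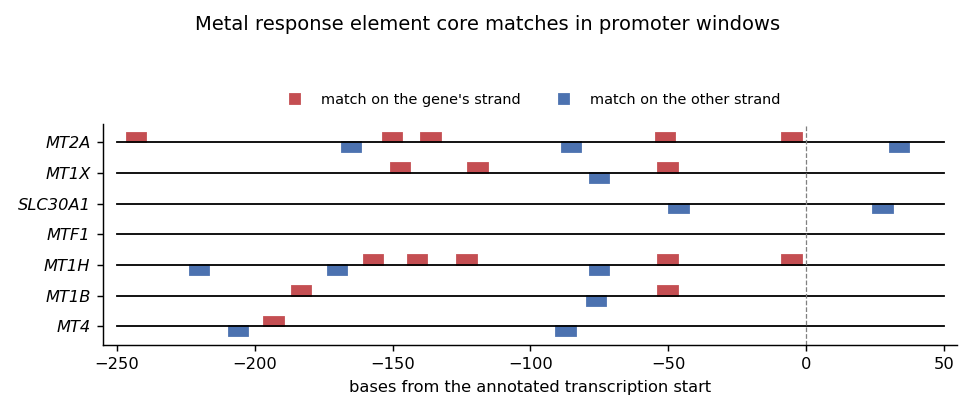
Matches to the metal response element core in RefSeq promoter windows, by distance in bases from the annotated transcription start (dashed line), for the members in the table and 3 other metallothionein genes. Red boxes above the line are on the gene's strand and blue boxes below it on the other strand; MT2A and MT1H hold 8 each, SLC30A1 holds 2 and MTF1 none.

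MT2A, the most widely used human metallothionein gene, was the metallothionein with most counts in these cells. It lies on chromosome 16 (56608199 to 56609497, + strand, GRCh38, GENCODE release 29), at one end of the run of members there. MT2A had 32, 52, 26 and 31 counts in tDR replicates 1 to 4, against 69, 84, 70 and 71 counts in control replicates 1 to 4. Every tDR library had fewer MT2A counts than every control library before library size was considered. In CPM, MT2A stood at 5.42, 7.12, 3.37 and 3.25 in tDR replicates 1 to 4, against 7.55, 10.3, 11.1 and 6.97 in control replicates 1 to 4. Of the tDR libraries 3 lay below all controls, and the groups overlapped only through tDR replicate 2, at 7.12 CPM, and control replicate 4, at 6.97 CPM.

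The MT2A mean was 4.79 ± 1.85 CPM in tDR libraries and 8.98 ± 2.03 CPM in control libraries (SD, n = 4 each). The log2 fold change was −0.91 ± 0.23 (SE; 95% interval −1.36 to −0.46), a level 46.9% lower in the tDR libraries. Over the 17184 genes tested, 24 genes (0.140%) had a lower log2 fold change. MT2A was chosen with this value known, so nothing is read from that rank. Pooled over each group, 141 MT2A counts gave 4.74 CPM of the summed totals in tDR libraries (exact Poisson 95% interval 3.99 to 5.59) and 294 gave 8.42 in control libraries (7.49 to 9.44); these intervals cover counting error only. The estimated background was 0.676% of MT2A counts in tDR libraries and 0.231% in control libraries, and the log2 fold change was −0.86 with it subtracted. In RNA from whole cultures, fewer cells with a transcript and less of it per cell cannot be told apart.

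MT1F was the other metallothionein with counts in all 8 libraries. It had 4, 16, 9 and 10 counts in tDR replicates 1 to 4, against 12, 17, 8 and 21 counts in control replicates 1 to 4. In CPM these were 0.677, 2.19, 1.17 and 1.05 in tDR libraries and 1.31, 2.08, 1.27 and 2.06 in control libraries. Although 3 tDR libraries lay below all controls, tDR replicate 2 had the highest level of the 8. The mean was 1.27 ± 0.648 CPM in tDR libraries and 1.68 ± 0.450 CPM in control libraries (SD, n = 4 each), with a log2 fold change of −0.41 ± 0.42 (SE; 95% interval −1.24 to 0.43). That interval holds both 0 and the value of MT2A, so at this depth MT1F cannot be placed with either.

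The other 4 metallothionein members were at or near 0. MT1E had 1 count in tDR replicate 3 and 1 in control replicate 4. MT1G had 3 counts, all in control replicate 2, and MT1M had 1, in tDR replicate 4. MT1X had no count in any library. A count of 0 allows up to 3 counts, or 0.325 to 0.513 CPM in tDR libraries and 0.284 to 0.459 CPM in control libraries, so lower levels were not detectable at this depth. Of the 450 bases of the MT1X transcript 165 (36.7%) are also exons of the gene ENSG00000259827 on the same strand, which itself had 6 counts in tDR libraries and 4 in control libraries. The part of that overlap in the MT1X counts was not tested.

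All 21 metallothionein loci of the table, pseudogenes included, held 592 counts over the 8 libraries, of which MT2A held 73.5% and MT1F 16.4%. Of the 15 loci outside the members 10 had any count and none passed the filter on low counts. MT1XP1, a processed pseudogene of MT1X on chromosome 1, had 0, 7, 2 and 2 counts in tDR replicates 1 to 4, against 1, 0, 0 and 0 in control replicates 1 to 4. MT1HL1, an intronless copy on chromosome 1, had 8 counts in tDR libraries and 11 in control libraries. MT3, the form known from brain, had 1 count in all, and MT4, known from stratified epithelium, had none.

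Summed over the 6 metallothionein members, the share of the unscaled library total was 6.16, 9.52, 4.79 and 4.55 CPM in tDR replicates 1 to 4, against 8.64, 12.3, 11.9 and 8.81 CPM in control replicates 1 to 4. The highest tDR library lay above 2 of the control libraries, and the other 3 lay below them all. The mean share was 6.25 ± 2.29 CPM in tDR libraries and 10.4 ± 1.98 CPM in control libraries (SD, n = 4 each), a log2 ratio of −0.74. The sums were 182 counts in tDR libraries and 356 in control libraries, so each library's share rests on 36 to 104 counts. MT2A made up 72.2% to 88.9% of the sum in tDR libraries and 76.3% to 89.7% in control libraries, so the share largely repeats MT2A.

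**Figure D2:**
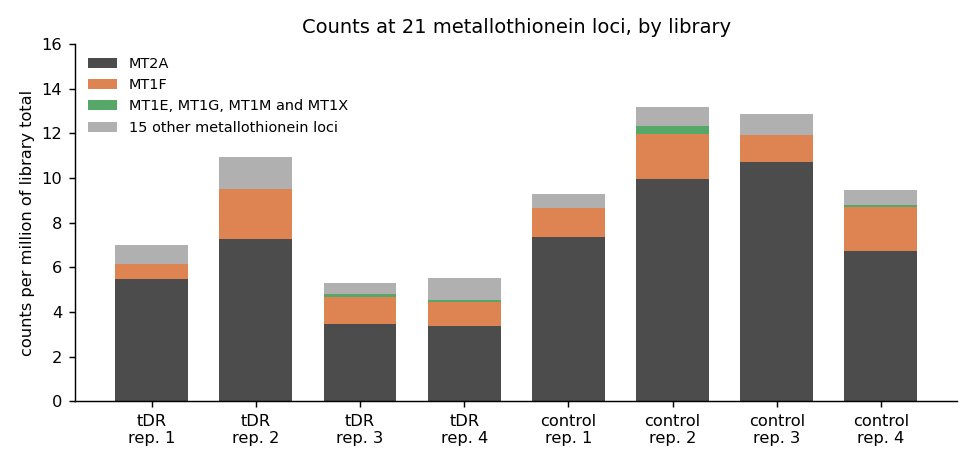
Counts at the 21 metallothionein loci, in CPM of each library total, tDR libraries left and control libraries right, stacked by gene. MT2A fills most of each bar, and tDR replicates 3 and 4 have the shortest bars of the 8, while MT1E, MT1G, MT1M and MT1X barely show.

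Among the regulators, MTF1 had the smaller difference. MTF1 (chromosome 1, 37809567 to 37859620, − strand) stood at 43.5, 36.4, 36.9 and 39.0 CPM in tDR replicates 1 to 4, against 39.4, 34.1, 39.7 and 41.7 CPM in control replicates 1 to 4. The groups lay across each other, with the highest library in the tDR group and the lowest in the control group. Its mean was 39.0 ± 3.23 CPM in tDR libraries and 38.8 ± 3.25 CPM in control libraries (SD, n = 4 each), and its log2 fold change 0.00 ± 0.09 (SE; 95% interval −0.18 to 0.18). The mRNA level says nothing of how much MTF1 protein was in the nucleus or had zinc bound.

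SLC30A1 (chromosome 1, 211571568 to 211578742, − strand) stood at 28.6, 33.3, 37.1 and 32.5 CPM in tDR replicates 1 to 4, against 35.8, 39.4, 34.6 and 37.0 CPM in control replicates 1 to 4. As for MT1F, 3 tDR libraries lay below all controls and 1, here replicate 3, lay among them. The mean was 32.9 ± 3.47 CPM in tDR libraries and 36.7 ± 2.03 CPM in control libraries (SD, n = 4 each). Its log2 fold change was −0.16 ± 0.09 (SE; 95% interval −0.35 to 0.03). The difference between MT2A and SLC30A1 was not tested.

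**Figure D3:**
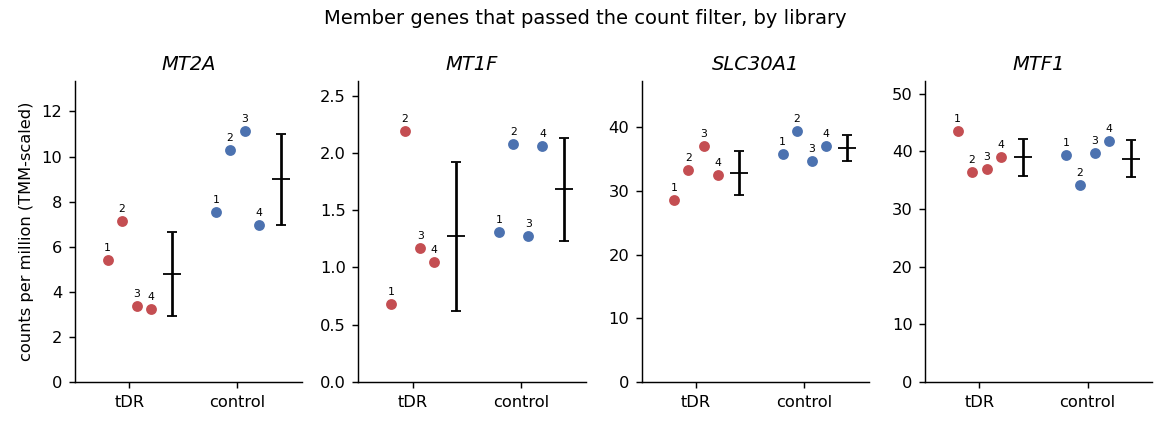
Level of the 4 members that passed the count filter in each library, in TMM-scaled CPM on axes that start at 0. Numbered points are replicates, tDR left and control right, and black bars give the mean and SD of 4; for MT2A 3 of 4 tDR libraries lie below every control, while the points of MTF1 mix.

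Per kb of exon, the order of the levels was not the same in the groups. In tDR libraries SLC30A1 stood at 6.0 CPM per kb, MTF1 at 4.86, MT2A at 3.69 and MT1F at 0.673. In control libraries MT2A stood at 6.91 CPM per kb, SLC30A1 at 6.71, MTF1 at 4.83 and MT1F at 0.890. The gap between MT2A and MTF1 in tDR libraries and that between MT2A and SLC30A1 in control libraries were smaller than the SD of MT2A. Exon lengths are the union over annotated transcripts, 1299 bases for MT2A, so a level per kb is lower than that of its main mRNA. By level in CPM, 66.6% of genes tested stood above MT2A.

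Of the 8 members 4 passed the filter on low counts, and the filter depends on the counts of the group where a gene is higher. In the fit over all 17184 genes (edgeR's quasi-likelihood F test at an adjusted p, Benjamini-Hochberg, under 0.05), 1 of the 4, MT2A, was counted as lower and none as higher, beside 11.4% of all genes tested as lower and 12.8% as higher. MT2A's difference was known when it was chosen, so nothing is read from that count. In CPM the groups overlapped for each of the 4, beside 22.7% of all genes tested whose groups did not overlap. With 1 library left out or the processing changed, the MT2A log2 fold change lay between −1.19, without tDR replicate 2, and −0.75, without tDR replicate 4. For MT1F it was −0.79 without tDR replicate 2 and −0.24 without tDR replicate 1, so single libraries set its size. SLC30A1 lay between −0.22 and −0.07 in the 16 alternatives, and MTF1 between −0.13 and 0.09, negative in 8 of 16.

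**Figure D4:**
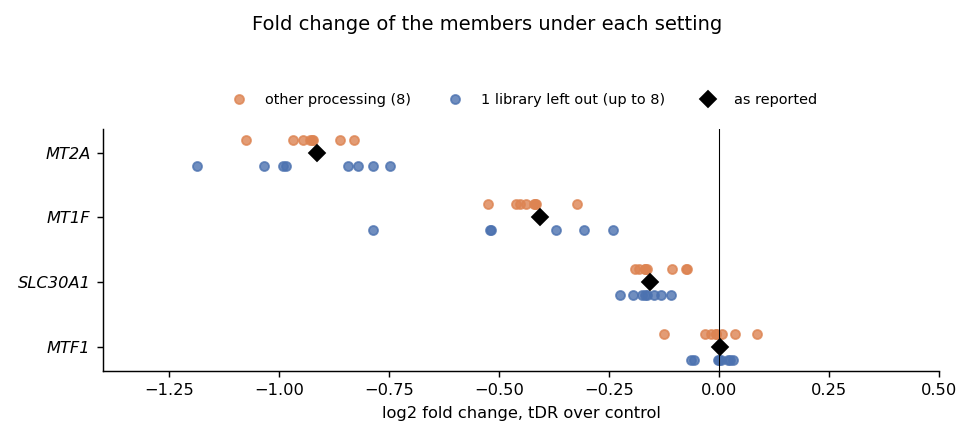
Log2 fold change, tDR over control, of the 4 members as reported (diamonds), under 8 other ways of processing (orange) and with 1 library left out (blue). MT2A stays between −1.19 and −0.75, SLC30A1 lies just below 0 and MTF1 lies on both sides of it.

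After removing the group means, the 6 pairs of tested members had correlations of both signs over the 8 libraries. Pearson's r of log2 CPM was 0.27 between MT2A and MT1F, −0.19 between MT2A and MTF1 and −0.32 between MT2A and SLC30A1. It was 0.59 between MT1F and SLC30A1, −0.62 between MT1F and MTF1 and −0.77 between MTF1 and SLC30A1. These are descriptions over 8 libraries that share depth and scaling, and the counts of MT1F are low. The 5 genes most like the metallothionein sum by the same measure, among 13130 genes, were ZNF331 (r = 0.99), CLCN3P1 (0.96), GNA11 (0.96), UBFD1 (0.95) and CBWD3 (0.95). Their log2 fold changes between the groups were 1.06, 1.02, 0.11, −0.07 and −0.06 in that order. The log2 ratio of the metallothionein share was −0.82 over TMM-scaled library sizes and −0.74 over unscaled totals. As the 5 genes have the highest of 13130 correlations over 8 libraries, no link to the metallothioneins is read from them.

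The other zinc transporters that were tested showed no common direction. Zinc exporters of the SLC30 family mostly move zinc out of the cytosol. Of 9 others that the table holds, 7 were tested, with a median log2 fold change of 0.03 against 0.02 over all genes tested. Of these, SLC30A10, known mainly as a manganese exporter, was higher and none was lower. The share that passed was 14.3%, beside 24.3% of all genes tested. SLC30A4 had no count in any library, so that share does not cover it. SLC30A10 averaged 16.5 ± 2.31 CPM in tDR libraries and 11.7 ± 1.77 CPM in control libraries (SD, n = 4 each), a log2 fold change of 0.48 ± 0.15 (SE; Benjamini-Hochberg adjusted p from edgeR = 0.0111). The estimated background made up 40.4% of its counts in tDR libraries and 35.9% in control libraries, and the call was lost with background subtracted (log2 fold change 0.44), without tDR replicate 1 (0.40) and without control replicate 4 (0.42). SLC30A3, which loads zinc into synaptic vesicles in neurons, had a log2 fold change of 0.63 (Benjamini-Hochberg adjusted p from edgeR = 0.0527). SLC30A9, at 172 ± 10.0 CPM in tDR libraries and 189 ± 5.98 CPM in control libraries, had one of −0.13 (adjusted p = 0.0589). SLC30A3 passed in 3 of 16 alternatives and SLC30A9 in 6.

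Among zinc importers of the SLC39 family, which bring zinc into the cytosol, 10 of 14 were tested. Of these, 1 rose and 2 fell (30.0%, beside 24.3% of all genes tested), and the median log2 fold change was 0.00. SLC39A1, SLC39A2 and SLC39A3 had no count in any library, so that share does not cover them. SLC39A10, a plasma membrane importer, stood at 67.0, 62.0, 61.3 and 57.0 CPM in tDR replicates 1 to 4, against 82.0, 78.8, 80.9 and 78.0 CPM in control replicates 1 to 4. The groups did not overlap. Its log2 fold change was −0.37 ± 0.07 (SE; Benjamini-Hochberg adjusted p from edgeR = 4.48e-05), and it stayed past the threshold in all 16 alternatives. SLC39A6, its close relative, averaged 101 ± 7.20 CPM in tDR libraries and 118 ± 6.23 CPM in control libraries (SD, n = 4 each; log2 fold change −0.23, Benjamini-Hochberg adjusted p from edgeR = 0.00353). That call was lost with scaling by library size alone (log2 fold change −0.15) and with background subtracted (−0.18). SLC39A12, an importer known from brain, passed as higher, at 2.23 ± 0.985 CPM in tDR libraries and 0.816 ± 0.367 CPM in control libraries, but the estimated background was 100% of its counts in tDR libraries and 165% in control libraries. The call was lost with background subtracted, without tDR replicate 3 (log2 fold change 1.02) and without control replicate 3 (1.15).

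Copper is the other metal that metallothioneins hold, and of 9 copper genes 8 were tested, 2 of which fell and none of which rose. The share that passed was 25.0%, beside 24.3% of all genes tested. SOD1, the copper and zinc superoxide dismutase, stood at 297, 276, 282 and 254 CPM in tDR replicates 1 to 4, against 341, 315, 335 and 331 CPM in control replicates 1 to 4. All tDR libraries lay below all controls, and the log2 fold change was −0.26 ± 0.05 (SE; Benjamini-Hochberg adjusted p from edgeR = 6.63e-05). COX17, which delivers copper to cytochrome c oxidase in mitochondria, averaged 30.1 ± 3.24 CPM in tDR libraries and 38.2 ± 4.28 CPM in control libraries (SD, n = 4 each), with overlapping groups and a log2 fold change of −0.35 ± 0.10 (SE; Benjamini-Hochberg adjusted p from edgeR = 0.00672). Both stayed past the threshold in all 16 alternatives. The copper importer SLC31A1 had 12.4 ± 2.93 CPM in tDR libraries and 15.5 ± 1.09 CPM in control libraries (adjusted p = 0.118). The median of the 8 was −0.10.

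Of 12 iron genes 11 were tested, with 1 higher, 2 lower and a median log2 fold change of −0.09. The share that passed was 27.3%, beside 24.3% of all genes tested. FTL, the ferritin light chain of the iron store, stood at 99.2, 92.6, 98.1 and 88.7 CPM in tDR replicates 1 to 4, against 73.1, 67.6, 67.5 and 75.6 CPM in control replicates 1 to 4 (log2 fold change 0.41 ± 0.07, SE; Benjamini-Hochberg adjusted p from edgeR = 3.63e-06). The groups did not overlap, whereas the heavy chain FTH1 had 112 ± 2.46 CPM in tDR libraries and 105 ± 12.2 CPM in control libraries (adjusted p = 0.303). TFRC, the transferrin receptor, averaged 169 ± 10.3 CPM in tDR libraries and 196 ± 10.7 CPM in control libraries (log2 fold change −0.21; Benjamini-Hochberg adjusted p from edgeR = 0.00241), and lost its call with scaling by library size alone (−0.13). NCOA4, the receptor for autophagy of ferritin, averaged 109 ± 3.78 CPM in tDR libraries and 125 ± 4.51 CPM in control libraries (log2 fold change −0.20; adjusted p = 0.00928), and lost its call with library size alone (−0.11), with background subtracted (−0.15) and without tDR replicate 4 (−0.17). Over the zinc, copper and iron lists together 9 of 36 genes (25.0%) passed the test, 3 higher and 6 lower, beside 24.3% of all genes.

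**Figure D5:**
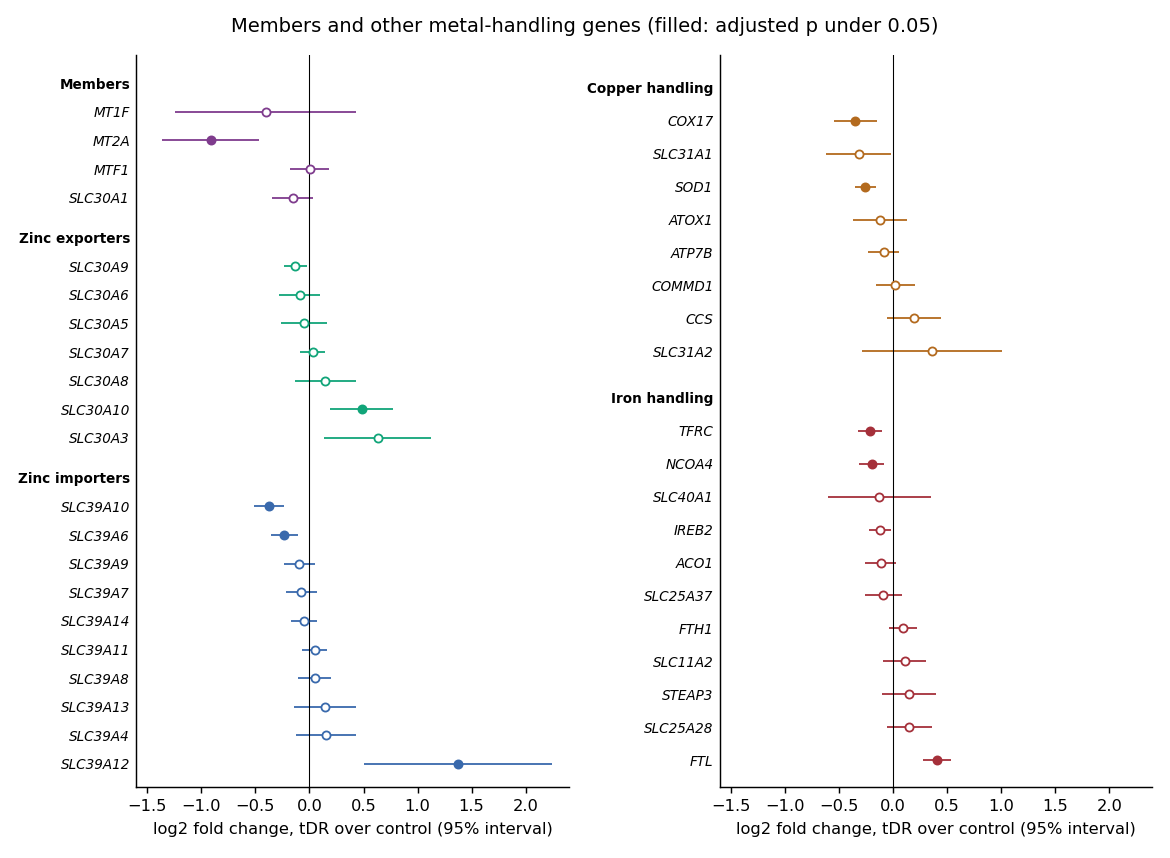
Log2 fold change, tDR over control, with its 95% interval, for the 4 tested members and the tested genes of the zinc, copper and iron lists. Filled points passed the test over all genes; MT2A, at −0.91, lies farthest to the left, and SLC39A12, farthest to the right, has counts about at or below the estimated background.

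Metallothionein genes also respond to oxidants and to glucocorticoids. Of 10 metal and oxidant stress genes 9 were tested, and 11.1% of these passed, beside 24.3% of all genes tested. HMOX1, the heme oxygenase gene induced by metals and oxidants, rose and the other 8 did not pass the test. HMOX1 stood at 29.0, 25.2, 25.0 and 26.8 CPM in tDR replicates 1 to 4, against 14.4, 16.5, 18.1 and 18.0 CPM in control replicates 1 to 4, with a log2 fold change of 0.66 ± 0.12 (SE; Benjamini-Hochberg adjusted p from edgeR = 2.17e-05). All tDR libraries lay above all controls for HMOX1. GCLM, of glutathione synthesis, had 38.2 ± 2.48 CPM in tDR libraries and 41.4 ± 1.34 CPM in control libraries, and TXNRD1, the thioredoxin reductase, 172 ± 6.46 CPM in tDR libraries and 181 ± 13.2 CPM in control libraries (adjusted p = 0.350 and 0.361).

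Of the glucocorticoid receptor gene and its targets 5 of 6 were tested, and 2 fell. That is 40.0% of the 5, beside 24.3% of all genes tested that passed in either direction, and with 5 genes nothing is read from that share. KLF9, a transcription factor induced by glucocorticoids, averaged 52.2 ± 4.27 CPM in tDR libraries and 64.2 ± 5.42 CPM in control libraries (SD, n = 4 each; log2 fold change −0.29, Benjamini-Hochberg adjusted p from edgeR = 0.00375). TSC22D3, known as GILZ, averaged 63.6 ± 3.12 CPM in tDR libraries and 75.4 ± 1.56 CPM in control libraries (log2 fold change −0.25; Benjamini-Hochberg adjusted p from edgeR = 0.00591) and lost its call with scaling by library size alone (−0.16). The receptor gene NR3C1 had 173 ± 12.9 CPM in tDR libraries and 178 ± 6.85 CPM in control libraries, and FKBP5, a target that feeds back on the receptor, 165 ± 2.54 CPM in tDR libraries and 175 ± 5.60 CPM in control libraries (adjusted p = 0.669 and 0.187).

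The genes on either side of the metallothionein cluster on chromosome 16 are neighbours of MT2A. Of 8 such genes 6 were tested, 1 fell and 1 rose, with a median log2 fold change of −0.08. The share that passed was 33.3%, beside 24.3% of all genes tested. NUP93, a nuclear pore gene, stood at 141, 138, 132 and 130 CPM in tDR replicates 1 to 4, against 160, 174, 170 and 167 CPM in control replicates 1 to 4. The groups did not overlap, and the log2 fold change was −0.32 ± 0.05 (SE; Benjamini-Hochberg adjusted p from edgeR = 1.15e-05). HERPUD1, of protein quality control in the endoplasmic reticulum, averaged 33.0 ± 1.42 CPM in tDR libraries and 27.6 ± 2.85 CPM in control libraries (log2 fold change 0.27; Benjamini-Hochberg adjusted p from edgeR = 0.0444), and lost its call in 12 of 16 alternatives, with log2 fold changes from 0.15 to 0.35 over the 16. NUDT21, of mRNA 3' end processing, had 14.8 ± 1.87 CPM in tDR libraries and 18.6 ± 4.70 CPM in control libraries (log2 fold change −0.34, adjusted p = 0.0789). It passed in 4 of 16 alternatives, and its log2 fold change was −0.21 without control replicate 1 and −0.48 without control replicate 3. BBS2 and GNAO1 did not pass the test either.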

How the data were processed

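The deposited values are raw read counts, whole numbers for each gene and library, not normalized by the authors. Per the labels' protocols, RNA was extracted with TRIzol and libraries were made with the SMARTer Stranded Total RNA-Seq Pico kit, version 2. The submitters' processing notes name featureCounts 2.0.2, STAR 2.7.8a, cutadapt 2.10, DESeq2 1.30.1 and FastQC 0.11.9. No source used here gives the strand setting, the annotation release or the treatment of reads with several matches.

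Counts were tested with edgeR 4.0.16 in R 4.3.3 (TMM scaling, edgeR's filter on low counts, quasi-likelihood F test with group as its single term, all 8 libraries together, Benjamini-Hochberg adjustment over 17184 genes). The steps were tested on simulated counts. GENCODE release 29 matched 57056 genes (94.1%) by gene name, or else by symbol or identifier. Background was estimated from the density of counts over 389 olfactory receptor genes times each gene's span, introns included. For some genes it exceeded the counts seen, as for SLC39A12 in control libraries (165%), so it can be too high for a gene.

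The members and gene lists were chosen with earlier results of these data known. From each list, up to 3 tested genes with the smallest p and those completing a count of 5 or fewer are named; FTH1, NR3C1, BBS2 and GNAO1 were added after their values were seen. Alternatives were other scaling (RLE, library size alone), DESeq2 1.42.0, no filter, a replicate block, length and GC offsets (mgcv 1.9.3), background subtraction and each library left out. No pair of libraries agreed within counting noise (chi-square 2.14 to 8.33 per degree of freedom over 28 pairs). Protein sequences are not used here, and 1 gene beside the metallothionein cluster is counted in its list but not reported here.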

Additional observations from a re-analysis of the deposited data

How the results depend on the processing

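TMM factors were 1.02 to 1.04 in tDR libraries and 0.966 to 0.978 in control libraries, so scaling moves with group. Scaling by library size alone put the median over all genes at 0.10 (log2) in place of 0.02, and 3295 genes were higher and 907 lower (78% of calls higher, against 52% with TMM). The planned length and GC offsets also shift each library's scale: the median was −0.08, with 1557 higher and 4136 lower (27% higher). A version centred so that the scale stays, added after those values were seen, gave 2239 higher and 1861 lower. With background subtracted 1087 were higher and 1100 lower. Zinc, copper and iron genes called higher numbered 5 with library size alone and 1 with background subtracted, and those called lower 3 with library size alone and 14 with the planned offsets. Flanking genes called higher numbered 0 with RLE scaling, DESeq2, the replicate block and the planned offsets, and 0 to 2 with 1 library left out. Those called lower numbered 2 with no filter, 3 with the planned offsets and 1 to 2 with 1 library left out.

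MT2A had a log2 fold change of −0.83 with library size alone, −1.07 with the planned offsets, −0.97 with the centred ones and −0.93 with the replicate block. The share of the 6 metallothioneins had a log2 ratio of −0.82 over TMM-scaled library sizes, −0.64 over all 21 loci (added after the data were seen), and −1.01 to −0.61 with 1 library left out. MT1F did not pass the filter without control replicate 2 or 4. Same-numbered libraries of the groups showed correlations of deviations from −0.03 to 0.07 and 3 of 8 libraries correlated best with their own number, so the numbers did not pair libraries; the block gave 2040 higher and 1834 lower. Of 14 named genes outside the members that passed the test, 7 kept their call in every alternative. The rest lost it in 1 (TFRC and TSC22D3) to 12 (HERPUD1) of the 16 alternatives. Among the named genes that had not passed the test, 6 gained a call in at least 1 alternative, SLC31A1, TXNRD1 and FKBP5 with the planned offsets alone. MT2A rests on 26 to 52 counts in tDR libraries and 69 to 84 in control libraries, which limits its precision.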
